A study of Mus musculus with 6 samples.

Results

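Chromatin accessibility around 9 homeobox genes, Irx1 to Irx6, Six2, Six3 and Six6, was described in mouse embryonic stem cells. The genes were given by name, and a peak was taken as theirs if it overlapped the annotated span of the gene widened by 100 kb on each side. This chose 63 distinct peaks of the 77533 on chromosomes 1 to 19, X and Y. The windows of Six2 and Six3, which are neighbours, shared 9 peaks that were counted once. The rule uses gene positions and no peak height.

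The labels describe ATAC-seq, in which the Tn5 transposase cuts and tags open DNA, in the E14 line of embryonic stem cells carrying an NSD1-dTAG knock-in, whose fusion protein the small molecule dTAG-13 directs to degradation. NSD1 methylates histone H3 at lysine 36. The untreated cells carry the tag on NSD1 as well. The series lists 6 samples in 6 groups of 1: cells at 0, 1, 6 and 24 h of 500 nM dTAG-13 in 2i/LIF medium, which holds an inhibitor of MEK, an inhibitor of GSK3 and the cytokine LIF, and dTAG-13-treated and untreated embryoid bodies of day 6. Times are those of the titles, because the treatment field of the samples titled 1 h and 24 h gives 6 h instead. Only the untreated 0 h library was analysed here, so nothing below measures an effect of NSD1 loss, and without replicates no test between conditions was possible. Height is given here as the summit pileup, a count of overlapping reads or fragments that was recovered from the authors' values, and a gene-end peak is one within 1 kb of either end of an annotated gene. The library labelled as stem cells had gene-end peaks at Pou5f1, Sox2, Nanog, Klf4 and Zfp42, and peaks up to a pileup of 179 inside Esrrb, all genes of the pluripotency network.

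Irx genes encode Iroquois transcription factors, homeodomain proteins of the TALE class that pattern the neural tube, heart, limb and kidney. In mammals they lie in 2 clusters of 3 genes, here Irx1, Irx2 and Irx4 on chromosome 13 and Irx3, Irx5 and Irx6 on chromosome 8. Six-family genes encode factors with a SIX-type domain and a homeodomain, which act with Eya coactivators and Dach corepressors: Six3 and Six6 in the forebrain and eye, and Six2 in the nephron progenitors of the kidney. In embryonic stem cells such developmental regulators are known as silent or nearly silent Polycomb targets with CpG-rich promoters. Accessibility of a promoter therefore does not state that the gene is transcribed, and expression was not measured here.

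The promoter sequences of the genes are shown because a peak lay over 5 of the 6 that the promoter table holds, and the remaining promoter, that of Six3, had none. The table is RefSeq's for GRCm38.p6, with windows from 250 bases before to 50 after a transcription start. Over all protein-coding genes in the table, 63.1% had a peak over such a window, so 5 of 6 is a small count near that share. Irx1, Irx5 and Irx6 had no entry. The 250 bases before each start are given 5′ to 3′, at chr13:72628570-72628819, plus strand for Irx2, chr8:91801655-91801904, minus strand for Irx3, chr13:73260247-73260496, plus strand for Irx4, chr17:85688255-85688504, minus strand for Six2, chr17:85620584-85620833, plus strand for Six3 and chr12:72939632-72939881, plus strand for Six6. The promoter of Crnde (chr8:92356121-92356370, minus strand), a long noncoding RNA beside Irx5, is added because the tallest of the 63 peaks lay over it. Capitals mark CCAAT boxes, GC boxes (GGGCGG) and the MEF3 core (TCAGGTT), the letters of a site known to be bound by SIX-domain proteins, on either strand.
Irx2: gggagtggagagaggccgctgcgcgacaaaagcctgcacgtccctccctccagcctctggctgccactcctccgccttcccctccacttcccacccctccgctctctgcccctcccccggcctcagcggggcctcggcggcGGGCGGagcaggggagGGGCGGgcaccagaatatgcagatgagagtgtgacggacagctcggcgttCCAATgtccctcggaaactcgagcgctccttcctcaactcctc
Irx3: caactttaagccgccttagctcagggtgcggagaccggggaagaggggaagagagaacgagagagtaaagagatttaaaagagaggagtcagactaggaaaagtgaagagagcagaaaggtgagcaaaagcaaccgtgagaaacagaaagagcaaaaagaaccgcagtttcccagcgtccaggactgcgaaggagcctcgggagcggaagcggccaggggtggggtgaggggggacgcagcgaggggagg
Irx4: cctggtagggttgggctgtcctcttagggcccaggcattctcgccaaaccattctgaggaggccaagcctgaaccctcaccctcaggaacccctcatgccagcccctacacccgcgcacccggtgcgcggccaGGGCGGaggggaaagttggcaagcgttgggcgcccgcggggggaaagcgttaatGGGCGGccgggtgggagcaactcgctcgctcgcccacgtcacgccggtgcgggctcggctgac
Six2: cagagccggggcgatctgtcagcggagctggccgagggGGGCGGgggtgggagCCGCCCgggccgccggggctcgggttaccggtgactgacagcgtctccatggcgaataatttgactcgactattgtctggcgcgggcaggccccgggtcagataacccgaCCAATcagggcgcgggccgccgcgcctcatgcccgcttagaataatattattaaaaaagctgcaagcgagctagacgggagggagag
Six3: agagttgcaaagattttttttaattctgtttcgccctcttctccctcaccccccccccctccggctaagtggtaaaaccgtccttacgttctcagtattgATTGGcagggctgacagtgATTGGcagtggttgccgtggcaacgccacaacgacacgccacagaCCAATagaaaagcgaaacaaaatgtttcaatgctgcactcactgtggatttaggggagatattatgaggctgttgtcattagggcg
Six6: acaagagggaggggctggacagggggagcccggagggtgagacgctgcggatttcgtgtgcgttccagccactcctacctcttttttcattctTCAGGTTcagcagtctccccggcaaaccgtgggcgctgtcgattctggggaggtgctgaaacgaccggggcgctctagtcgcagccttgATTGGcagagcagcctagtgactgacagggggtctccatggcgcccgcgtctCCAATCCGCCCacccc
Crnde: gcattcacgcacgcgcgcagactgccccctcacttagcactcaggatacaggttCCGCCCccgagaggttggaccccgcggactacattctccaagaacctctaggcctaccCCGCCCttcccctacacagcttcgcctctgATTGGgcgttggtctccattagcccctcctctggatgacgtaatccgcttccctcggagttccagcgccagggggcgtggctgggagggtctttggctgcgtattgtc

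The 6 promoters of the Irx and Six-family genes were rich in CG dinucleotides, the target of DNA methylation in mammals. Six2 had 26 in 250 bases, Irx4 had 22, Irx2 had 19, Six6 had 17, Irx3 had 13 and Six3 had 10. Of all 32851 promoter windows, 64.4% had as few CG dinucleotides as Six3 or fewer, and 91.4% as few as Six2 or fewer. The share of windows with a peak climbed with CG count in this library, from 3.19% at 0 to 1 CG to 98.2% at 20 to 29 CG. At 10 to 14 CG, the range that holds Six3 and Irx3, it was 84.5% (Wilson 95% interval 83.2 to 85.7 over 3447 windows), so Six3 belonged to the smaller group of promoters of its CG content without a peak. By GC content Six3 was the lowest of the 6 at 48.8%, and Irx4 the highest at 68.8%.

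**Figure D1:**
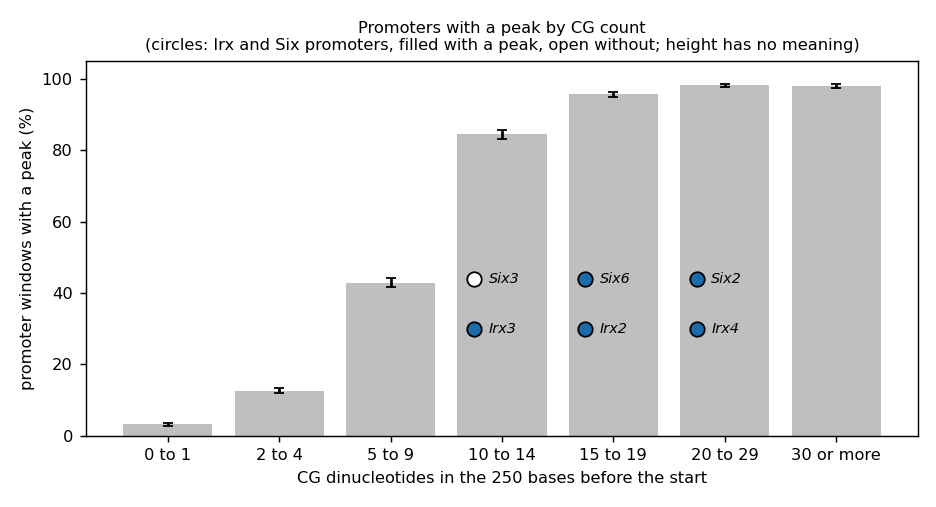
Share of RefSeq promoter windows with an ATAC-seq peak (vertical axis, %) by the number of CG dinucleotides in the 250 bases before the start (horizontal axis), with Wilson 95% intervals; circles place the 6 Irx and Six-family promoters in their bins, filled where a peak lay over the window. The share was 84.5% in the bin of Irx3 and Six3, and the circle of Six3 is the open one.

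Motif letters were counted in the same 250 bases. A CCAAT box stood in the promoters of Irx2, Six2, Six3 and Six6, 4 of 6, against 33.8% of all promoter windows. Six3 held 3 of them, whose first letters lay 150, 131 and 86 bases before the start. A GC box stood in those of Irx2, Irx4, Six2 and Six6, 4 of 6, against 32.7% of all windows and 60.5% of windows with a peak. Neither Irx3 nor Six3 had a GC box. The MEF3 core stood in Six6 alone among the 6, 157 bases before the start, against 3.49% of all windows. Matches to the E-box letters CANNTG were found in Irx2 alone, against 66.2% of all windows and 56.5% of windows with a peak. None of the 6 held the TATA box TATAAA, found in 12.4% of all windows and 5.28% of those with a peak. The octamer core ATGCAAA (4.12% and 3.21%) and the SOX core ACAAAG (16.5% and 11.5%) were absent too. So was the IRX palindrome ACANNTGT (6.31% and 2.88%), whose middle letters are also those of an E-box. These are matches of letters in a window of 250 bases on both strands, not binding sites.

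Around the 9 genes accessible sites were few to average in number, and Irx3 and Irx5 had the fewest. Irx3 had 3 peaks in its window, Irx5 had 4 and Irx6 had 7. On chromosome 13, Irx1 and Irx2 had 6 each and Irx4 had 13. Among the Six-family genes, Six2 and Six3 had 10 each and Six6 had 13. The median over the 9 genes was 7, against 12 over all 21883 protein-coding genes. The window of Irx3, which acts in heart conduction and neural patterning, held so few that only 16.2% of protein-coding genes had as few or fewer; for Irx4 and Six6 that share was 55.0%. By counting error, Irx3 at 14.8 peaks per Mb (Poisson 95% interval 3.05 to 43.2) and Six6 at 63.4 (33.8 to 108) had overlapping intervals, so the order of neighbours in this list was not resolved.

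**Figure D2:**
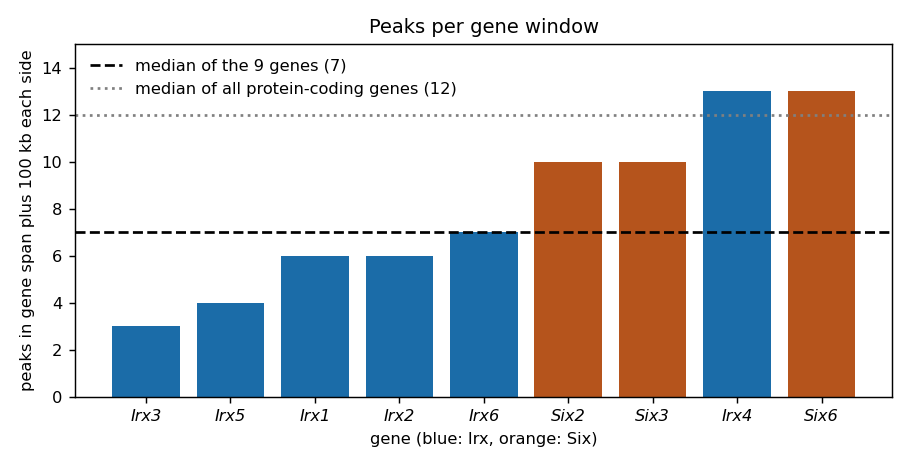
Number of peaks (vertical axis) in the span of each gene plus 100 kb on each side, for the 6 Irx genes (blue) and the 3 Six-family genes (orange). The median of the 9 genes was 7 and that of all protein-coding genes 12, and Irx4 and Six6, with 13 each, were the only members above 12.

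The number of neighbouring genes differed between the windows in the same way. Irx1, Irx2, Irx3, Irx5 and Irx6 had no other protein-coding gene within 100 kb, against a median of 4 over all protein-coding genes. Those 5 genes had a median of 6 peaks, against 4 over the 1181 protein-coding genes without such a neighbour. The window of Irx4 held Ndufs6, a subunit of respiratory complex I, and Mrpl36, a protein of the mitochondrial ribosome. The window of Six6 held 4930447C04Rik. The part of neighbouring genes in the peak counts was not tested.

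Per length, the 63 peaks lay at 36.7 per Mb of window (Poisson 95% interval 28.2 to 46.9), against 28.7 per Mb over the chromosomes. The interval includes the chromosome value, which also covers stretches far from genes. By single gene windows the median was 33.9 per Mb over the 9 genes, against 49.8 over all protein-coding genes. The windows of the Irx genes held 31.5 per Mb (22.4 to 43.0) and those of the Six-family genes 50.0 (32.1 to 74.4). At single loci the values were 40.0 per Mb for Irx1, Irx2 and Irx4, 22.8 for Irx3, Irx5 and Irx6, 40.1 for Six2 and Six3, and 63.4 for Six6. With only peaks of a summit pileup of at least 20 counted, the 9 windows held 25.6 per Mb, against 16.7 over the chromosomes, stretches far from genes included.

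Accessible sites were densest inside the genes, although the interval there overlapped that of the nearest 10 kb outside. Each summit was assigned once, to the nearest of the 9 genes. Summits inside the 9 genes came to 208 per Mb (Poisson 95% interval 121 to 332), from 17 summits, against 77.3 per Mb inside the 9869 protein-coding genes of the same range of lengths, 3.14 to 25.5 kb. Within 10 kb outside the genes there were 77.8 per Mb (42.5 to 130), against 55.7 around all protein-coding genes. There each base was assigned to the nearest of all protein-coding genes, so those zones held no such gene. The zones around the 9 genes could hold others, such as 4930447C04Rik, Ndufs6 and Mrpl36, so the measures are not alike. From 10 to 25 kb the density was 11.7 per Mb (2.41 to 34.2), against 32.8. From 25 to 50 kb it was 17.5 (7.04 to 36.1), against 25.5, and from 50 to 100 kb it was 26.2 (16.2 to 40.1), against 18.7. Outside the genes the 4 intervals each included the value around all protein-coding genes, so no difference was resolved there.

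The zone from 10 to 25 kb was empty around the Irx genes. None of the 39 peaks in their windows had its summit there, in 0.18 Mb, which allows up to 16.7 per Mb (3 counts), against 32.8 around all protein-coding genes. Inside the Irx genes there were 310 summits per Mb (160 to 541), and inside the Six-family genes 116 (37.6 to 271). Around the Six-family genes the zone from 10 to 25 kb held 3 summits, or 39.2 per Mb (8.08 to 115), an interval that overlaps the limit for the Irx genes.

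**Figure D3:**
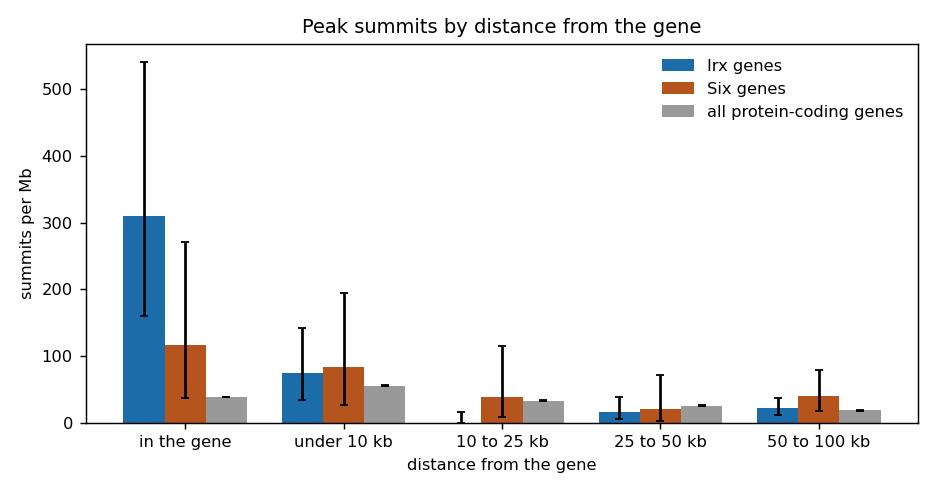
Peak summits per Mb (vertical axis) by distance from the gene (horizontal axis), for Irx genes, Six-family genes and all protein-coding genes, with each summit counted once and exact Poisson 95% intervals (up to 3 counts, a limit on the upper side only, where there was no summit) that cover counting error only. Zones outside the Irx and Six-family genes can hold other protein-coding genes, and those outside all protein-coding genes cannot. Irx genes had 0 summits at 10 to 25 kb, and in both families the highest density was inside the genes, where the interval of the Six-family genes overlapped those of their flanks.

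The long stretches that separate the Irx genes held 5 to 10 summits each. Between Irx1 and Irx2, in 0.661 Mb without another protein-coding gene, there were 7 summits, or 10.6 per Mb (Poisson 95% interval 4.26 to 21.8). Between Irx2 and Irx4 there were 10, or 16.0 per Mb (7.67 to 29.4). Between Irx3 and Irx5 there were 9, or 16.2 per Mb (7.40 to 30.7), and between Irx5 and Irx6 there were 5, or 16.0 per Mb (5.19 to 37.3). The upper bound of the first stretch lay below the chromosome average of 28.7 per Mb, and the other 3 intervals included it. That average also counts peaks in and at genes, whereas no protein-coding gene lay within any of the stretches, so the regions are not alike. The longest run without a summit in each stretch was 218 kb from Irx1 to Irx2, 152 kb from Irx2 to Irx4, 185 kb from Irx3 to Irx5 and 131 kb from Irx5 to Irx6. The tallest peak reached a pileup of 44 between Irx1 and Irx2, 72 between Irx2 and Irx4 and 32 between Irx5 and Irx6. Between Irx3 and Irx5 it was the peak of 127 at Crnde.

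Of the 9 genes, 7 had a peak within 1 kb of an annotated gene end (77.8%, Wilson 95% interval 45.3 to 93.7), against 66.5% of all protein-coding genes. All 7 had a pileup of at least 20, a mark met by 60.2% of all protein-coding genes. Their heights were moderate, and in a pool of cells a site open in fewer cells and a site less open in each cell cannot be told apart. The gene-end peak of the highest fold reached a pileup of 55 at Irx3, 52 at Six6, 49 at Irx4, 47 at Six2, 37 at Irx5, 33 at Irx1 and 25 at Irx6. Their median was 47, against 65 over the protein-coding genes that had such a peak. The Poisson 95% intervals of these pileups ran from 41.4 to 71.6 at Irx3 down to 16.2 to 36.9 at Irx6. If the counts hold no PCR copies, Irx3 and Irx6 were thus apart by counting error and neighbours in the order were not.

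Irx2 and Six3 had no gene-end peak. At Irx2, a gene of lung, limb and neural development, the annotated start in the promoter table lay 4.39 kb inside the gene span, and a peak of 1265 bp lay over that start with a pileup of 91 (73.3 to 112) and a fold of 8.10. Its summit was 96 bases before the start, in the sequence printed above. It was thus the tallest peak at the start of any of the 6 genes with a promoter entry. The same peak lay over the promoter window of Gm20554, a long noncoding RNA. Over all protein-coding genes, 619 of the 7335 without a gene-end peak had one over a promoter window.

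At Six3, needed for the forebrain, the start lay 7.23 kb inside the span and no peak lay over it. The nearest peak edges were 2.07 kb before the window and 2.55 kb after it. The first of these peaks, at chromosome 17, 85617816 to 85618510, had a pileup of 42 (30.3 to 56.8) and lay over the promoter window of Six3os1, the noncoding RNA read from the Six3 locus. The second, at 85623430 to 85623917, had a pileup of 27 (17.8 to 39.3) and lay inside the gene. The 2 peaks inside Six3 stood on backgrounds of 4.15 and 7.08. Across the 11551 listed peaks with a background in that range the lowest pileup was 12. The background at the Six3 start itself is not known. If it lay in that range, a site below about 12 was not detectable here, and a somewhat taller one could have been missed too.

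**Figure D4:**
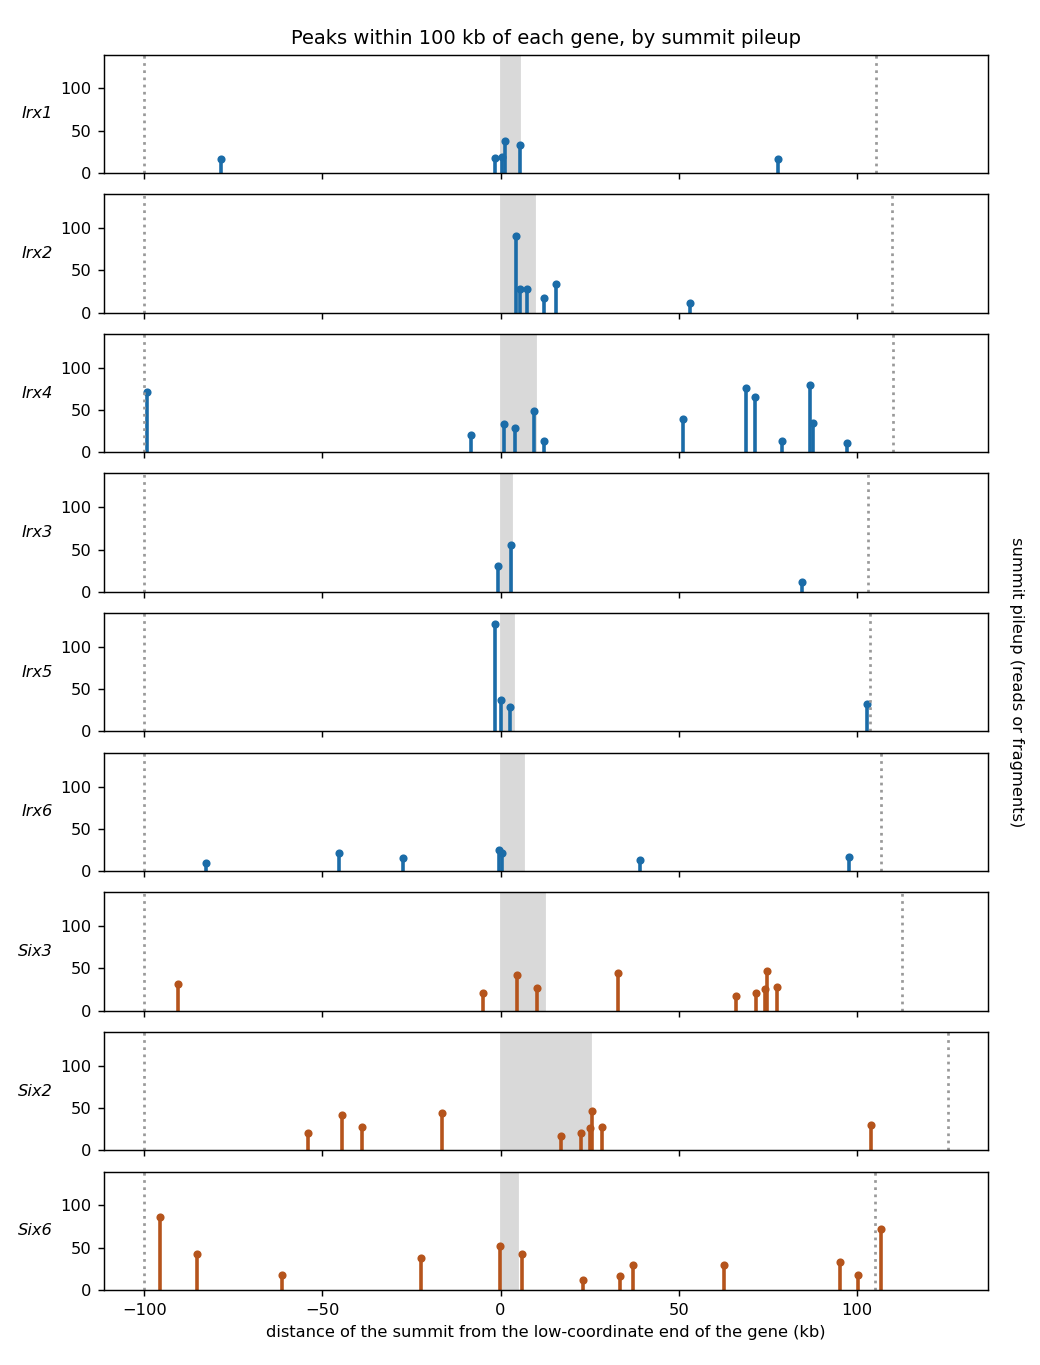
Every peak in the window of each gene, placed by the distance of its summit from the low-coordinate end of the gene (horizontal axis, kb) and by its summit pileup (vertical axis, reads or fragments); the grey band is the gene span and the dotted lines the window edges. Peaks cluster in and beside the genes, and the tallest stands beside Irx5 at a pileup of 127.

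The chromosome 13 locus held 25 peaks, and its taller ones lay mostly at genes beside Irx4. After the peak over the Irx2 start, the next were at 79 (62.5 to 98.5) and 76 (59.9 to 95.1). The first lay in Eprn, a noncoding RNA known from the exit from naive pluripotency, 76.7 kb from Irx4, and the second at the ends of Ndufs6 and Mrpl36. A peak at Mrpl36 reached 65 (50.2 to 82.8). The fourth in height, at chromosome 13, 73160049 to 73160727, lay 99.1 kb from Irx4, overlapped no annotated gene, and had the highest fold of the 63 peaks, 17.4, at a pileup of 71 (55.5 to 89.6).

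Irx4, a gene of the heart ventricle, had its own peaks at lower heights. The peak over its start had a pileup of 33 (22.7 to 46.3), that within the gene 29, and that near its high-coordinate end 49 (36.3 to 64.8). Beside Irx4, a peak 8.17 kb away reached 20. Irx2 carried a series of 5 peaks from its start peak onward, at pileups of 91, 28, 28, 17 and 34 in the order of their positions. Irx1 carried 4 peaks in or beside the gene at 18, 19, 38 and 33, and otherwise had 2 peaks of 16 each, 78.5 and 72.3 kb away. Every pileup at Irx1 was below the median of 54 over all gene-end peaks.

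The chromosome 8 locus held 14 peaks with a median pileup of 23, equal to that of all peaks. Its tallest, the tallest of all 63, spanned chromosome 8, 92355801 to 92356574, with a pileup of 127 (106 to 151) and a fold of 11.0. Its summit lay 1.60 kb from Irx5 and its interval over the promoter window of Crnde, so that it did not overlap the Irx5 gene end by the 1 kb rule. Of all peaks, 97.0% had a pileup as low or lower. Irx5 itself, with roles in the heart's repolarization and in the retina, had peaks of 37 (26.1 to 51.0) at its low-coordinate end and 29 (19.4 to 41.6) near its other end. Which of Irx5 and Crnde the tall site serves cannot be told from accessibility.

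Irx3 had a peak of 1608 bp over its start, at chromosome 8, 91800866 to 91802473, with a pileup of 55 (41.4 to 71.6) and a fold of 5.01. A further peak, of 30 (20.2 to 42.8), lay 0.796 kb beyond its other end and over the promoter window of Gm39222, a noncoding RNA. The only other peak in the window, 81.5 kb away, had a pileup of 12. Irx6, which acts in the retina, had peaks of 25 and 21 on either side of its low-coordinate end, and its other 5 peaks had pileups of 10 to 21. Irx6 was thus the lowest of the 9 genes by its tallest peak.

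The Six-family genes had few tall peaks of their own. At Six2 the peak over the start, at chromosome 17, 85688249 to 85688691, had a pileup of 47 (34.5 to 62.5) and lay also over the promoter window of CJ186046Rik, a noncoding RNA beside the gene. It was the tallest of the 11 peaks of Six2 and Six3. Between the 2 genes stood 1 peak, 16.3 kb from Six2 and outside any annotated gene, at a pileup of 44 (32.0 to 59.1) and a fold of 13.3. Other peaks inside Six2 reached 17, 21 and 26.

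At Six6 the peak over the start, at chromosome 12, 72939611 to 72940380, had a pileup of 52 (38.8 to 68.2) and a fold of 11.8, the highest fold at a gene end among the 7 genes. Its summit lay 54 bases before the start, between the CCAAT boxes that begin 68 and 16 bases before it. A peak 1.04 kb beyond the other end reached 42 (30.3 to 56.8). The tallest in the window, 86 (68.8 to 106), lay 95.6 kb away over the promoter window of Gm40441, a noncoding RNA.

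Several of these sites lay over promoters of long noncoding RNAs. Of the 63 peaks, 13 lay over a promoter window (20.6%, Wilson 95% interval 12.5 to 32.2), against 15.9% of all peaks on chromosomes with such windows. A noncoding RNA's window was under 7 of them (11.1%, 5.49 to 21.2), against 2.96% of all peaks. Those were the windows of Gm20554, Eprn, Gm39222, Crnde, Six3os1, CJ186046Rik and Gm40441. This count was made after the peaks had been seen.

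Peaks close to the genes differed from the farther ones in background more than in height. The 29 peaks in a gene or within 5 kb of it had a median pileup of 29, and the 34 farther ones had a median of 30. The local background, the pileup expected around a peak, likewise recovered from the authors' values, had a median of 5.89 (order-statistic 95% interval 4.15 to 7.64) for the near peaks and 1.87 (1.30 to 2.61) for the far ones. None of the near peaks stood on the lowest background of the library, 1.30, whereas 13 of the far ones did (38.2%). On that background stood 35.8% of all peaks away from every protein-coding gene end and 7.74% of all gene-end peaks. The median backgrounds of those 2 sets were 1.76 and 4.52, so background was higher at gene ends across the library too. Their median pileups were 20 and 54. The cutoff of 5 kb was chosen after the values had been seen.

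Fold enrichment, the ratio of pileup plus 1 to background plus 1, was lower near the genes than farther out. Its median was 5.01 (3.36 to 5.55) near the genes and 8.18 (7.03 to 9.81) farther out. The 16 peaks at an end of an Irx or Six-family gene had a median fold of 4.97 (3.13 to 6.65) and a median pileup of 33, against 9.87 and 54 over all gene-end peaks. Of the near peaks, 23 of 29 had a fold below the median of all peaks, 7.05, as did 11 of the 34 far ones. The low folds reached 2.35 inside Irx5, at a background of 11.8, and 2.66 and 2.71 inside Irx2, at 9.90 and 9.69. Both genes have a taller peak nearby, of 127 at Crnde and of 91 over the Irx2 start. The part of those peaks in these backgrounds was not tested. The fold of the gene-end peak of Irx5, 3.13, was exceeded by all but 0.509% of the genes having a peak there. By contrast, the fold of Six6 was above that of 56.5% or equal to it. The pileup at Irx5 was as high as or higher than that of 25.8% of these genes. The background of that Irx5 peak, 11.2, was as high as or higher than that of 92.1% of them.

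**Figure D5:**
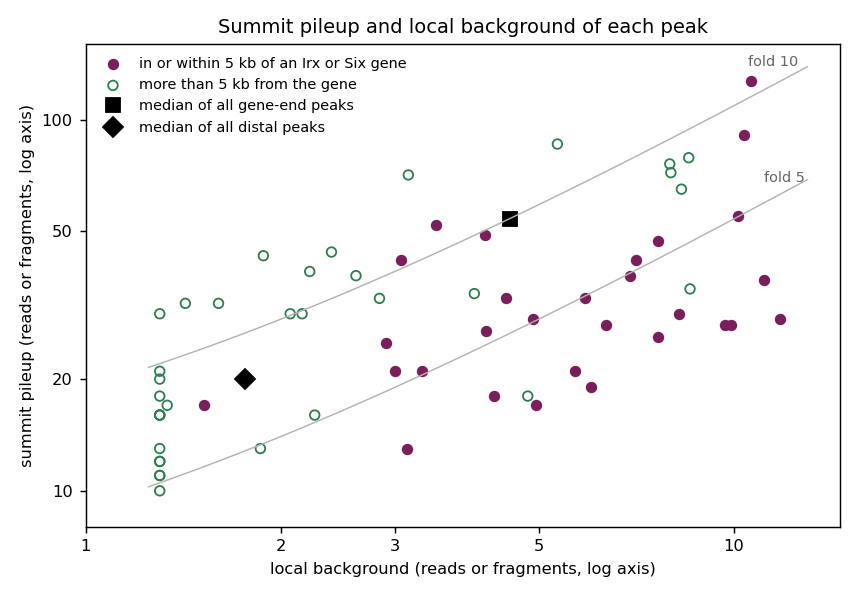
Summit pileup (vertical axis) against local background (horizontal axis) of each of the 63 peaks, both on log axes in reads or fragments, split by distance from the gene; black symbols are medians over all gene-end and all distal peaks, and grey lines mark a fold of 5 and of 10. Near peaks (filled) lie to the right, on backgrounds with a median of 5.89, and many far ones stand on the lowest background of 1.30.

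Most peaks were of ordinary width. The median width was 564 bp, against 487 bp over all peaks, and 9 of 63 (14.3%) were at least 1000 bp wide, against 11.8% of all peaks. The peak over the Irx3 start, of 1608 bp, was among these. Of the 63 peaks, 9 reached the gene-end median of 54, a height met by 19.9% of all peaks. A pileup of 100 was reached by 1 of them, against 6.36% of all peaks. Distal sites, away from the ends of every protein-coding gene, made up 43 of the 63 peaks (68.3%, Wilson 95% interval 56.0 to 78.4), against 79.7% of all peaks. Distal in this sense does not mean away from promoters. The peak over the Irx2 start counted as distal, as did those over the promoter windows of Crnde, Six3os1, Eprn and Gm40441. The distal share around the 9 genes was 79.0% when the summit had to lie both in the window of the gene and, for a gene-end peak, in the 1 kb gene-end window. The 79.7% of all peaks was counted by overlap, so it cannot be compared with that value.

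Related families were set beside the 9 genes. At Six2 and Six6 the gene-end pileups were 47 and 52, against 73 at Six4 and 91 at Six5, whose windows held 13 and 23 peaks. The cofactors Eya1 to Eya4, Dach1 and Dach2 each had a peak at a gene end, the pileups having a median of 44.5, and their windows held 1 to 30 peaks. The other TALE genes, among them Meis1 and Pknox1, had one at 12 of 12 genes, and the median of their pileups was 60, the highest being 138 at Pbx4. Developmental families of other homeobox or paired-box genes had lower medians than the 47 of the Irx and Six-family genes: 33.5 for the Dlx genes, 28 for the Hox genes and 25 for the Pax genes. The median fold at the gene end was 5.55 for the 9 genes, 5.74 for the Dlx, 5.92 for the Pax and 6.36 for the Hox genes, each below the 11.1 of all protein-coding genes. Every other list was below 11.1 too, at 9.16 for the other TALE genes, 8.73 for the cofactors and 7.34 for the pluripotency genes. A median fold below that of all genes was therefore not particular to the developmental families. By peaks in the window the 9 genes, at a median of 7, stood below the Dlx genes at 16.5, the Pax genes at 12 and the Hox genes at 26. These lists hold at most 39 genes, and neighbouring Hox and Dlx genes share windows, so the medians are descriptions only.

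The outermost peak inside a window lay 43.2 kb from Irx2, at a pileup of 11, and 98.9 kb from Irx4, at a pileup of 71; at Irx1, Irx3, Irx5, Irx6, Six2 and Six3 it lay between 78.0 kb (Irx1, pileup 16) and 98.7 kb (Irx5, pileup 32). The first peak outside lay between 103 kb (Irx6, pileup 11) and 221 kb (Irx1, pileup 10) away. At Irx4, the peak of 71 just inside was followed by 1 of 45 at 136 kb. With 1 library, likeness of the genes' patterns across samples could not be measured.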

How the data were processed

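The values are those of the peak list deposited for 1 ATAC-seq library; 5 further samples were not analysed here. The submitters' processing notes name the builds mm10 and GRCm38.p6 and the tools MACS2 2.2.6, Bowtie2 2.3.4.1, deepTools 3.2.1, SAMtools 1.9 and bcl2fastq 2.20.0.422. For filters on duplicates, mitochondrial reads and mapping quality, and for any Tn5 shift, the sources used here give nothing. The deposited list gives a score (10 times −log10 q, rounded down), fold enrichment as the authors' ratio over a local background, and −log10 p and −log10 q, all per peak; the deposited −log10 q starts at 1.30, matching a q of 0.05. Peaks were called without a control, per the names of the deposited peaks. The total depth is unknown.

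Pileup and background were recovered from fold = (pileup + 1)/(background + 1) and the Poisson tail probability. Pileups were whole for 77626 of 77629 peaks (tolerance 0.01). The recovery and the overlap functions were tested on simulated data. Intervals are exact Poisson, Wilson or order-statistic intervals at 95% and reflect counting error alone. Copies made by PCR are not separate molecules, so the pileup intervals are too narrow if such copies were kept. Genes, promoter windows and microRNAs came from RefSeq tables of GRCm38.p6. Promoter windows of chromosome 18 were not used here, and some neighbouring and related genes are not reported here. A peak belonged to a window by an overlap of at least 1 bp, and positions are counted from 1. All 9 genes, the tallest peaks of each locus, genes in the windows and the related families were named by rule. The members and lists were chosen with earlier results of these data known, and Crnde, the length range of genes, the noncoding count and the 5 kb split were added after values were seen. Software was scipy 1.17.1, pandas 2.3.3 and numpy 2.4.6 under Python 3.11.15, with figures from matplotlib 3.10.9.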

Additional observations from a re-analysis of the deposited data

How the results depend on the processing

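Of 33 alternative values of the 6 main results, 26 moved by less than their counting interval or 1.5 times. The number of distinct peaks followed the radius by construction, with 41 at 50 kb and 108 at 200 kb, against 63. The distal share was 79.0% with the summit required in both the gene window and the gene-end window, 79.4% with gene-end windows of 500 bp and 54.0% with windows of 2500 bp, against 68.3%. The density was 25.6 per Mb with a pileup of at least 20 required, a setting chosen after seeing the data, against 36.7. With the deposited fold in place of the pileup as the measure, the median over the 63 peaks was 6.23. The number of genes with a gene-end peak was 6 with windows of 500 bp and 9 with windows of 2500 bp, and 7 with a −log10 q of at least 5. At that threshold 53 of the 63 peaks were left, and the window of Irx2 held 3 peaks in place of 6. No paired analysis was possible because 1 library was analysed. The lowest listed pileup was 6. The part of depth in that was not tested.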
